A study of Mus musculus with 6 samples.

Results

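The solute carriers described here are the 137 genes, of 31053 in the count matrices, whose symbol began with Slc and a family number, whose unique molecular identifiers (UMIs) summed to at least 1000 over the 6 libraries, and which were not among 13 carriers of organic anions, of the leptomeninges, of the blood-brain barrier or of red cells that were left out by name. Of 375 genes with such a symbol, 228 stayed under 1000 UMIs, 24 of them with no UMI. The summed UMIs alone chose the members, so a gene could reach the limit through the class where it was highest. Slc35d1 and Slc46a3 (1018 UMIs each) and Slc37a3 (1015) lay just inside the limit, and Slc6a9 (992) and Slc35e2 (921) just outside it. Slc38a2, a sodium-coupled neutral amino acid transporter, took the largest share of the members' UMIs (40139 UMIs, 7.19%), followed by Slc25a4, a mitochondrial ADP/ATP carrier (37683 UMIs, 6.75%). Grouped by gene family, by what most members of the family carry, 26 members move amino acids or peptides (27.5% of the members' UMIs), 24 belong to the mitochondrial Slc25 family (32.4%, the peroxisomal Slc25a17 included), 20 move metals (10.8%), 18 inorganic ions (7.82%), 15 nucleotide sugars (5.08%), 9 sugars (4.03%) and 7 monocarboxylates or hormones (2.89%). The remaining groups were lipid (4), organic anion (3), vitamin (3), nucleoside (2) and vesicular (1) carriers and 1 other. Another 4 members share only the name and are not carriers: the scaffold proteins Slc9a3r1 and Slc9a3r2, and Slc4a1ap and Slc7a6os.

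Solute carriers are membrane proteins that move small molecules by exchange, cotransport or facilitated diffusion. At the borders of the brain they set which nutrients, ions and neurotransmitters pass between blood, cerebrospinal fluid and tissue, and the cell types at that border differ in the carriers they use. Some act as pairs, such as Slc3a2 (CD98 heavy chain), which brings light chains of the Slc7 family to the cell surface. The mitochondrial Slc25 family is used by nearly every cell, while others, such as the astrocytic glutamate transporters Slc1a2 and Slc1a3, are known for one cell type.

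Single-cell RNA sequencing (10x Genomics) was performed on adult wild-type C57BL6 mice of either sex, with 4 libraries of cells released from the cortical surface, including the leptomeninges, and 2 libraries of bone-associated cells from the skull lining, including the dura. Each library pooled cells of several mice, so the spread between libraries is the spread between such pools. The mice were not perfused, and viable cells (DRAQ5-positive, propidium iodide-negative) were sorted without a cell type gate. Dissection site, dissociation and run differed together between the preparations and cannot be told apart, and libraries of the same preparation carry no treatment.

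The libraries held between 8408685 and 56169736 UMIs in 17560 barcodes, of which 8680 were kept as cells (739 to 2452 per library) and 7863 carried a cell class name. Any 2 libraries shared at most 9 barcodes. Cortical surface libraries 3 and 4 stood apart: hemoglobin genes took 84.6% and 71.9% of all their UMIs and 17.9% and 12.2% of those in kept cells, against at most 0.524% in kept cells of the others. Kept cells held 43.6% of all UMIs and 78.6% of the members' UMIs. Median UMIs per cell differed between the preparations within a class, at 14611 in dural against 7630 in leptomeningeal mesenchymal-like cells and 6205 against 3799 in bone-associated and cortical surface pericyte-like cells. Solute carriers entered neither the clustering nor the markers, so the levels below were not used to define the classes.

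The level of a member in a class was taken as the mean over libraries of its UMIs scaled to a common library total, as CPM, for the 18 classes with a library of at least 10 cells. By this measure 18 members were highest in microglia-like cells, 12 each in dural, endothelial-like and Schwann-like cells, 11 in neuron-like cells, 10 each in leptomeningeal, mast cell-like and choroid plexus-like cells, 9 each in neutrophil-like and border macrophage-like cells, 6 in erythroid-like cells, 4 each in B cell-like, pericyte-like and vascular smooth muscle (VSMC)-like cells, 3 in cells led by Ccl19 and Colec11, 2 in monocyte or other macrophage-like cells, 1 in dendritic-like cells and none in T or NK cell-like cells. Of the 8800 genes with at least 1000 UMIs, 9.25% were highest in microglia-like cells, against 13.1% of the members. The pairs were 4.58% and 8.76% in dural, 6% and 8.76% in endothelial-like and 6.36% and 8.76% in Schwann-like cells. They were 2.97% and 7.3% in leptomeningeal, 9.43% and 7.3% in choroid plexus-like and 7.23% and 7.3% in mast cell-like cells. In neuron-like cells they were 17.75% and 8.03%, and in T or NK cell-like cells 3.28% and 0%. Most differences in rank were small. The level in the highest class was a median 1.53-fold that of the second, under 1.5-fold for 68 members and at least 5-fold for 12. For 39 members, or 28.5%, every library of the highest class lay above every library of all other classes, against 19.6% of the 8800 genes with at least 1000 UMIs. These 39 are called apart below, and since the class was chosen by its values the levels are a description with no test. The neuron-like class had 1 library of 24 cells, so none of its 11 members could be placed apart, nor any of the 1562 genes highest in it. These make up 8.03% of the members and 17.75% of the 8800 genes, so the shares of 28.5% and 19.6% are not on equal terms. Astrocyte-like, oligodendrocyte-like and oligodendrocyte precursor-like cells had no library of 10 cells and were not ranked. Some members called highest or apart were higher still in them, as given below.

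**Figure D1:**
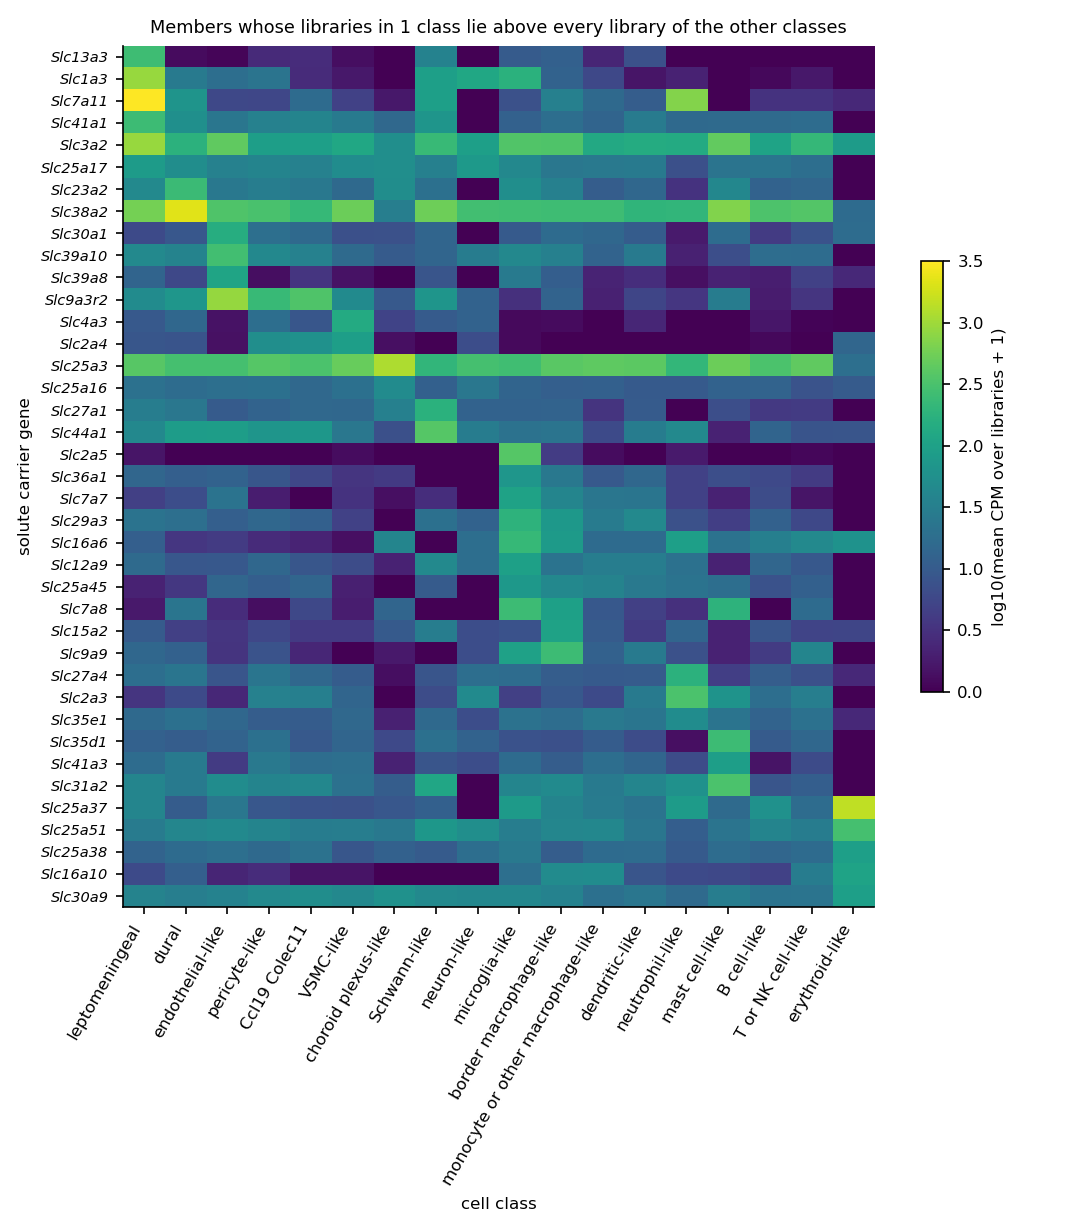
Mean CPM over libraries, as log10(CPM + 1) by colour, of the 39 solute carriers whose libraries in 1 cell class (columns) lay above every library of the other ranked classes, ordered by that class. Slc25a3 and Slc38a2 are present in most columns, whereas Slc2a5 and Slc13a3 stand out in microglia-like and leptomeningeal cells.

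Leptomeningeal cells, the mesenchymal-like cells of the cortical surface libraries (270 cells, led by Gjb6, Lum, Gjb2 and Dcn), had 10 members at their highest and 6 of them apart. Of the 261 genes with at least 1000 UMIs that were highest there, 64 were apart. Slc7a11, the cystine and glutamate exchanger that feeds glutathione synthesis, was read at 3469, 2472, 4106 and 2675 CPM in cortical surface libraries 1 to 4, a mean of 3181 ± 752 (SD, n = 4). The next class was neutrophil-like cells with 706 CPM, of which bone-associated library 1 alone reached 1942, and mast cell-like and neuron-like cells had no UMI of it. Its partner Slc3a2 was also highest there (911 ± 232 CPM, 2.01-fold the next class). Slc1a3, a glutamate transporter best known from astrocytes, varied little between the libraries (876, 936, 998 and 907 CPM) and was 5.34-fold the level of microglia-like cells. Slc13a3, which imports dicarboxylates such as succinate with sodium, reached 259 ± 62.7 CPM, 7.38-fold that of Schwann-like cells, and Slc41a1, a magnesium transporter, 254 ± 29.4 CPM. The sixth, the peroxisomal carrier Slc25a17 (82.5 ± 4.55 CPM), exceeded the single neuron-like library by only 1.09-fold. Slc38a3, the glutamine transporter SNAT3, was highest in leptomeningeal cells too (185 ± 51.4 CPM) but overlapped with endothelial-like cells, whose libraries reached 230.3 CPM.

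The promoter of Slc7a11 is shown because this gene had the highest level of any member in the leptomeningeal cells and a known response to amino acid shortage runs through a short element in it. The gene lies on the minus strand of chromosome 3 (GRCm38/mm10, chr3:49892526-50443614). RefSeq (GRCm38.p6) places 250 bases before and 50 bases after its start at chr3:50443564-50443863, and capitals mark 2 matches, on opposite strands, of the amino acid response element core TGATGCAA, with first bases at -66 and -47 from the start.
Slc7a11: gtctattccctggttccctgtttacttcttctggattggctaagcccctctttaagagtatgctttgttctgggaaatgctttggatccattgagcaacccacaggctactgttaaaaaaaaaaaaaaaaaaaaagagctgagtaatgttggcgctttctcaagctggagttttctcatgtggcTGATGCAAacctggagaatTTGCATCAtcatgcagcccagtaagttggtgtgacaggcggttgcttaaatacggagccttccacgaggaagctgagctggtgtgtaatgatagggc
Of 32851 RefSeq promoters of this length, 294 (0.895%) held this motif on either strand, as did 4 of the 142 promoters (2.82%) that the table gives for 107 members, those of Slc50a1, Slc7a11 and Slc7a7. A match describes these letters only.

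Dural mesenchymal-like cells (297 cells of the bone-associated libraries, in clusters led by Inmt and Apod, by Col6a5 and Kcns1 and, for 15 cells in which 4 of 9 pericyte markers also counted as leading, by Ptx3 and Il6) had 12 members at their highest and 2 apart. Of the 403 genes with at least 1000 UMIs that were highest there, 164 were apart. Slc38a2 was read at 2075 and 2368 CPM in the 2 libraries, 3.23-fold the mean of mast cell-like cells, with the highest library of any other class at 895. Slc23a2, the sodium-coupled ascorbate transporter that collagen-producing cells depend on, was read at 240.5 ± 0.93 CPM (n = 2), 4.5-fold the next class. Both were highest in the Col6a5-led cluster, where Slc38a2 reached 2780.4 CPM against 1625 in the Inmt-led cluster and Slc23a2 310 against 148.

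Endothelial-like cells (1136 cells, all 6 libraries) had 12 members at their highest, and 3 of the 4 apart were metal carriers. Of the 528 genes with at least 1000 UMIs that were highest there, 157 were apart. Slc39a10, a zinc importer, was read at 354, 320, 305 and 331 CPM in the cortical surface libraries and at 246 and 80.2 in the bone-associated ones. The zinc exporter Slc30a1 was at 212, 174, 175 and 169 CPM and at 118 and 52.9 CPM, 8.39-fold the mean of pericyte-like cells. Slc39a8, which imports zinc and manganese, averaged 111 ± 38.3 CPM (n = 6, 4.24-fold the next class). All 3 were lower in both bone-associated libraries than in every cortical surface library. None of the 3 was called in the comparison of the preparations below, where 38 of 89 members tested did not overlap (share over all genes not given). The fourth, the scaffold gene Slc9a3r2, was at 894 ± 109 CPM. Slc6a6, the taurine transporter, had the highest level of any member in this class (1435 ± 534 CPM), but its lowest library (593 CPM) lay below dural cells (up to 624.6 CPM).

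The promoter of Slc30a1 (chr1:191906531-191906830, GRCm38.p6, plus strand) is shown because zinc raises this gene through metal response elements. Capitals mark 2 matches of the element's core, searched as TGCACNC or TGCGCNC, both on the opposite strand and with first bases at -43 and 30 from the start.
Slc30a1: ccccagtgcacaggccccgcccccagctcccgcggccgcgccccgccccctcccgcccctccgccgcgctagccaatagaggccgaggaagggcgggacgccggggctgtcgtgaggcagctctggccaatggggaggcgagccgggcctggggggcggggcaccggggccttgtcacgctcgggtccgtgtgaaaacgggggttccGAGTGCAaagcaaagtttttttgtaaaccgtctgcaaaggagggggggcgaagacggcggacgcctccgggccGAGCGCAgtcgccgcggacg
The core is short and common: 8444 of the 32851 promoters (25.7%) and 53 of the 142 promoters of members (37.3%) held at least 1 match.

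Microglia-like cells (677 cells, present in the cortical surface libraries only) had 18 members at their highest and 8 apart. Of the 814 genes with at least 1000 UMIs that were highest there, 229 were apart. Slc2a5, the fructose transporter GLUT5, was read at 291, 456, 358 and 394 CPM, and the mean of 375 CPM was 117-fold that of border macrophage-like cells (3.21 CPM). Also apart were the lysosomal nucleoside exporter Slc29a3 (181.5 ± 29.9 CPM, 2.51-fold the next class) and the lysosomal proton-coupled amino acid exporter Slc36a1 (69.3 ± 8.13 CPM, 2.81-fold). Slc7a7, a light chain for cationic amino acids (103 ± 22.6 CPM), Slc16a6 of the monocarboxylate family (220.6 ± 6.41 CPM) and Slc12a9 of the chloride cotransporter family (96.6 ± 16.5 CPM) were 2.69-, 2.33- and 2.19-fold the next class. Slc15a2, an importer of di- and tripeptides, and Slc9a9, a sodium/proton exchanger of endosomes, were instead highest in border macrophage-like cells (103 ± 23.1 and 248 ± 68.2 CPM, n = 6, 3.5- and 2.47-fold the next class).

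Among mural cells, VSMC-like cells held Slc4a3, an anion exchanger of excitable cells, at 183 and 171 CPM in the cortical surface and 118 and 79.6 in the bone-associated libraries, 7.87-fold pericyte-like cells. Slc2a4, the insulin-responsive glucose transporter GLUT4, was apart in the same class at 92.2 ± 13.1 CPM. Slc12a2, the sodium-potassium-chloride cotransporter, Slc38a11 and Slc19a1, the reduced folate carrier, were highest in pericyte-like cells without being apart (443 ± 144, 287 ± 188 and 225 ± 152 CPM, n = 6). Their wide SDs come with a difference between the preparations for Slc38a11 and Slc19a1, tested below.

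Choroid plexus-like cells carried the highest levels of the mitochondrial phosphate and ADP/ATP carriers. The phosphate carrier Slc25a3 was read at 1294 and 1344 CPM in cortical surface libraries 3 and 4 and 892 CPM in bone-associated library 1, 2.28-fold mast cell-like cells and apart from every other library. The ADP/ATP carriers Slc25a4 (1201 ± 375 CPM) and Slc25a5 (879 ± 232 CPM) were highest there as well but overlapped with VSMC-like and macrophage-like cells. The 13 choroid plexus-like cells of bone-associated library 1 held 840893 UMIs and differed from the others in several members, with Slc22a17 at 1268 CPM against 298 and 222 and Slc31a1 at 395 against 54.8 and 66.3.

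In Schwann-like cells, seen only in the 2 bone-associated libraries with 16 and 69 cells, the choline transporter Slc44a1 was read at 455 and 293 CPM (4.21-fold the next ranked class) and the fatty acid transport protein Slc27a1 at 200 and 143 CPM (5.33-fold). Among the unranked glia described below, Slc44a1 was higher in oligodendrocyte-like and Slc27a1 in astrocyte-like cells. Slc4a4, a sodium bicarbonate cotransporter, was highest there on average but rested on 1 library (510 against 47.7 CPM).

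Blood-lineage classes had a few members of high contrast. Mast cell-like cells held Slc35d1, which brings UDP-sugars into the Golgi and endoplasmic reticulum for glycosaminoglycan synthesis, at 254 and 252 CPM, 13.7-fold the next class, together with the copper carrier Slc31a2 (328 ± 36.7 CPM) and the magnesium carrier Slc41a3 (91.9 ± 23.3 CPM). Neutrophil-like cells held the glucose transporter Slc2a3 at 327 ± 89 CPM (n = 4, 5.34-fold) and Slc27a4 at 177 ± 120 CPM (7.94-fold), the latter at 305 and 254 CPM in the bone-associated and 86.7 and 63.5 CPM in the cortical surface libraries. The lactate exporter Slc16a3 was split in the same way in neutrophil-like cells, with 1653 and 1389 against 219 and 191 CPM. In erythroid-like cells of cortical surface libraries 3 and 4, mitoferrin 1 (Slc25a37), which carries iron into mitochondria for heme synthesis, was read at 1580 and 1359 CPM, 17.8-fold neutrophil-like cells, and the mitochondrial NAD carrier Slc25a51 and glycine carrier Slc25a38 were 4.23- and 3.67-fold the next class. Barcodes that were not kept as cells held 79.4% of the UMIs of Slc25a37, 77.2% of those of Slc25a39 and 61.3% of those of the heme transporter Slc48a1, against a median of 85.02% in kept cells over all members.

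Glia of the brain itself were too few for the ranking, but some members were higher in them than in any ranked class. The 16 astrocyte-like cells gave 6743 CPM of Slc1a2 (95% Poisson interval 6403 to 7097, counting error only) against 116 in neuron-like cells, the highest ranked class. Slc1a3 was at 3852 CPM in them (3596 to 4122), above the 929 CPM of leptomeningeal cells. The lower bound lay above the highest ranked class for 10 members in astrocyte-like cells (also Slc48a1, Slc9a3r1, Slc20a1, Slc38a3, Slc35a2, Slc15a2, Slc27a1 and Slc4a4), for 4 in the 16 oligodendrocyte-like cells (Slc48a1, Slc12a2, Slc44a1 and Slc35a2) and for 2 in the 7 oligodendrocyte precursor-like cells (Slc22a17 and Slc1a2).

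The first comparison asked how the mesenchymal cells of the leptomeninges and dura differ in their carriers. Of 119 members that passed the detection filter (a UMI in more than 10% of cells in one group or the other), 12 were higher and 9 lower in leptomeningeal than in dural cells, 21 in all, against 14.4% of all 9544 genes tested (5.61% higher and 8.8% lower). A call meant an adjusted p under 0.05 and a log2 fold change of at least 1.3 in edgeR's quasi-likelihood test with Benjamini-Hochberg adjustment over all genes, on UMIs summed per library. The levels in the comparisons are CPM on TMM-scaled library sizes and the log2 fold changes are given ± an approximate SE. This SE is the absolute log2 fold change divided by the square root of the test's F statistic, and is not a standard error of the fit. Families of amino acid carriers made up 12 of the 21, with 7 higher and 5 lower of 20 tested (Slc43a3, a purine nucleobase carrier, is counted here with its family), whereas none of 22 Slc25 family members and none of 15 nucleotide sugar carriers passed. The median log2 fold change was -0.08 over the members and -0.01 over all genes.

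Slc7a11, Slc1a3, Slc3a2 and Slc38a3 were among the members higher in leptomeningeal cells. Slc7a11 was read at 3179.8, 2453, 4312 and 3179 CPM against 88.2 and 30.8 CPM in dural cells, groups that did not overlap (log2 fold change 5.84 ± 0.54, adjusted p = 1e-07). Slc1a3 was read at 803, 929, 1048 and 1078 CPM against 23.1 and 27.5 CPM (5.21 ± 0.35, adjusted p = 2.5e-09). Slc3a2 differed less, at 940, 1121, 937 and 706 against 144 and 195 CPM (2.45 ± 0.31, adjusted p = 5.1e-06), again without overlap. Slc38a3 had 492 UMIs in the leptomeningeal libraries and 2 in the dural ones, a ratio of 479 (exact interval 132 to 3966, counting error only), with 204, 229, 127 and 198 CPM against 0 and 0.514.

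The dicarboxylate carrier Slc13a3 was the member with the largest fitted difference (log2 fold change 8.97 ± 0.54, adjusted p = 5.9e-10), at 306, 284, 226 and 238 CPM in leptomeningeal libraries. Dural cells held 2 UMIs of it against 658, a ratio of 641 (177 to 5300). Slc16a11 of the monocarboxylate family was read at 96.6, 190, 88.2 and 166 CPM against 2.71 and 3.08 (5.47 ± 0.48, adjusted p = 6.6e-08). The folate carrier Slc19a1 and the scaffold gene Slc9a3r1 were higher by 2.65 ± 0.38 and 2.86 ± 0.48 on the log2 scale, and the remaining 4 higher members were Slc41a1, Slc6a17, Slc38a9 and Slc7a2. Leptomeningeal and dural libraries overlapped for Slc6a17 and Slc38a9, each lowest in cortical surface library 4.

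The taurine transporter Slc6a6, Slc38a2 and the ascorbate transporter Slc23a2 were among the members higher in dural cells. Slc6a6 was read at 566 and 606 CPM in dural and at 0, 22.2, 11 and 31.7 CPM in leptomeningeal cells (log2 fold change -5.32 ± 0.48, adjusted p = 9.9e-08). Slc38a2 was at 2145 and 2019 CPM against 510, 610, 502 and 832 CPM (-1.77 ± 0.29, adjusted p = 9.6e-05), and Slc23a2 at 218 and 233 against 43.8, 51.8, 38.6 and 47.6 CPM (-2.28 ± 0.28, adjusted p = 3.3e-06). None of these overlapped between the groups, and 45 of all 119 members tested did not. Since the share over all genes is not given, lack of overlap is not read as a result about the carriers. Slc12a2 was at 136 and 118 CPM against 9.05, 21.5, 0 and 47.6 CPM (-2.87 ± 0.44). The light chain Slc7a8 (-3.66 ± 0.66), the monocarboxylate carrier Slc16a7 (-3.13 ± 0.68), Slc43a3 (-2.85 ± 0.74) and Slc36a4 (-1.58 ± 0.48) were low in both groups, under 35 CPM in every library, and the last called member was Slc16a9 (-1.43 ± 0.33). Slc43a3 overlapped between the groups through cortical surface library 4 (15.9 CPM).

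**Figure D2:**
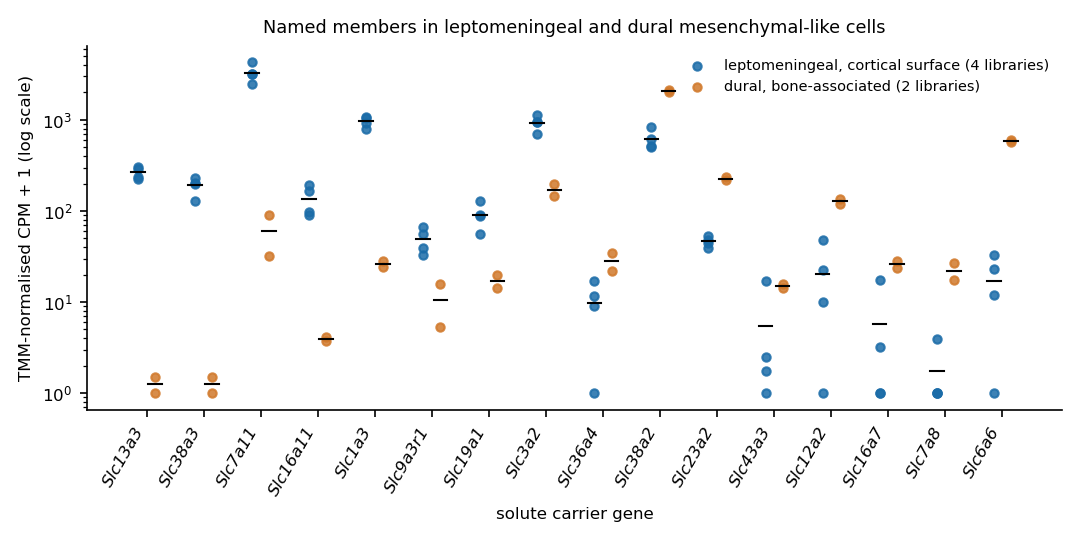
Levels of called solute carriers in the 4 leptomeningeal (cortical surface) and 2 dural (bone-associated) mesenchymal-like libraries, 1 point per library, as log10(CPM + 1). Slc13a3, Slc38a3 and Slc7a11 lie high in all leptomeningeal libraries, and Slc6a6 is near 600 CPM in both dural libraries against at most 31.7 in leptomeningeal ones.

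Of 20 other transport genes listed as partners or as other carriers of brain barriers, 15 were tested in the same comparison. The thyroid hormone and organic anion carriers Slco1c1 (6.54 ± 0.75) and Slco1a4 (3.46 ± 0.74) were higher in leptomeningeal cells, and the potassium channel regulator Abcc9 (-5.12 ± 0.73), Emb, a partner of monocarboxylate carriers (-3.58 ± 0.63), and the metallothioneins Mt2 (-2.20 ± 0.32) and Mt1 (-1.33 ± 0.32) were lower. Abcc9 is also among the pericyte markers used to name the classes. Markers of other cell types also moved with this comparison, and the summed level of 14 of 22 marker lists did not overlap between the groups. The 10 VSMC markers, all detected, summed to 53.4 to 408 CPM in leptomeningeal and 808 to 1790 CPM in dural libraries, and the 9 pericyte markers, led by Vtn, to 3881 to 8314 and 406 to 1642 CPM, although only 3 of the 9 were higher in leptomeningeal cells. The 9 border macrophage markers, led by Pf4, summed to 20.0 to 966 CPM in leptomeningeal and 6.604 to 10.5 CPM in dural libraries, and all 9 were higher in the former. Their part in the results was not tested. The 9 astrocyte markers summed to at most 11.5 CPM in leptomeningeal and to 14.3 to 17.97 CPM in dural libraries. Of these markers, 4 (Ntsr2, Acsbg1, Bcan and Mlc1) had no UMI in either group. Whether RNA of astrocytes contributed to the level of Slc1a3 was not tested.

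Endothelial-like cells of the cortical surface (541 cells) and the bone-associated tissue (595 cells) were compared next. Of 89 members tested, 7 were higher and 8 lower in the cortical surface libraries, against 6.51% of all 7690 genes called in either direction (2.25% higher and 4.27% lower). Slc38a3 was read at 157, 220, 123 and 149 CPM against 38.4 and 16.7 CPM (log2 fold change 2.67 ± 0.30, adjusted p = 6e-06), and the iron exporter Slc40a1 at 194, 191, 156 and 139 against 62.2 and 24.9 CPM (2.03 ± 0.29, adjusted p = 5e-05). No library of one preparation overlapped with the other for these genes, which are among 38 of the 89 members tested without overlap (share over all genes not given). Slc1a3 (2.56 ± 0.35), the cationic amino acid transporter Slc7a1 (1.49 ± 0.33), the copper importer Slc31a1 (1.47 ± 0.25) and Slc46a3 (1.38 ± 0.35) were higher too. Lower in the cortical surface were Slc43a3, at 2.94, 26.1, 11.8 and 1.25 against 130 and 160 CPM (-3.46 ± 0.42, adjusted p = 1.1e-05), the nucleoside transporter Slc29a1, at 35.3, 38.5, 26.5 and 30.1 against 102 and 138 CPM (-1.83 ± 0.23, adjusted p = 1.3e-05), and Slc38a2, at 221, 263, 118 and 142 against 722 and 562 CPM (-1.75 ± 0.25, adjusted p = 4.6e-05). The other 5 were Slc15a3, Slc20a1, Slc5a3, Slc12a2 and Slc26a2, all under 55 CPM in every library. Slc5a3 lies on the same strand within Mrps6, and reads of these genes may be shared.

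The endothelial-like clusters of the preparations were led in part by different genes, and the levels of called members differed between clusters. In the cortical surface libraries the clusters were led by Mfsd2a (229 cells), Vwf (234) and Cytl1 and Gkn3 (73), and in the bone-associated ones by Gpihbp1 (268), Gkn3 (137), Slco1a4 with Mfsd2a (97) and Selp (93). Mfsd2a, a lipid transporter, is known from capillaries with a blood-brain barrier. Slc38a3 averaged 224 CPM in the cortical surface Mfsd2a cluster, 170 in the Vwf cluster and 124 in the bone-associated Slco1a4 cluster, and had no UMI in the Gpihbp1, Selp and Gkn3 clusters. Slc40a1 was at 234, 181 and 173 CPM in the same order against at most 7.86 CPM in the other bone-associated clusters. Slc7a1 and Slc39a10 were highest in the 2 clusters with Mfsd2a (516 and 348, and 556 and 470 CPM). Slc43a3 went the other way, with 285 CPM in the Gpihbp1 cluster and 7.11 in the Slco1a4 cluster. When only the clusters with Mfsd2a were compared, an alternative chosen after seeing the data, 1 of 95 members tested was called. Calls were fewer over all genes too, at 168 of 8099 (2.07%) against 6.51% with all clusters. Slc38a2 remained lower in the cortical surface (-1.35 ± 0.29, adjusted p = 0.0073), whereas Slc38a3 was at 0.79 ± 0.25 (adjusted p = 0.13) and Slc40a1 at 0.34 ± 0.24 (adjusted p = 0.73). Slc20a1 (-1.93 ± 0.57, adjusted p = 0.083), Slc5a3 (-1.37 ± 0.64, adjusted p = 0.44) and Slc26a2 (-1.05 ± 0.61, adjusted p = 0.62) kept a negative value without passing the test. The sign was turned for Slc29a1 (0.91 ± 0.39, adjusted p = 0.39), Slc1a3 (-0.49 ± 0.57) and Slc46a3 (-0.24 ± 0.49). Among the other transport genes, Slco1c1, Slco1a4, Bsg and Tfrc were higher and Slco2a1 lower in all cortical surface endothelial-like cells, 5 of 18 tested. Of 22 marker lists of other cell types, 4 did not overlap between the preparations. The 9 microglia markers, all higher in the cortical surface, summed to 27.1 to 57.2 against 0.590 to 3.57 CPM. The choroid plexus markers, 8 of 11 with a UMI, summed to 20.7 to 153 against 350 to 570 CPM, and the Schwann markers to at most 6.50 CPM. The 8 mesenchymal markers, led by Dcn, summed to 13.6 to 57.4 against 87.4 to 89.8 CPM, although 4 of the 8 were higher in the cortical surface. Their part in the calls was not tested.

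**Figure D3:**
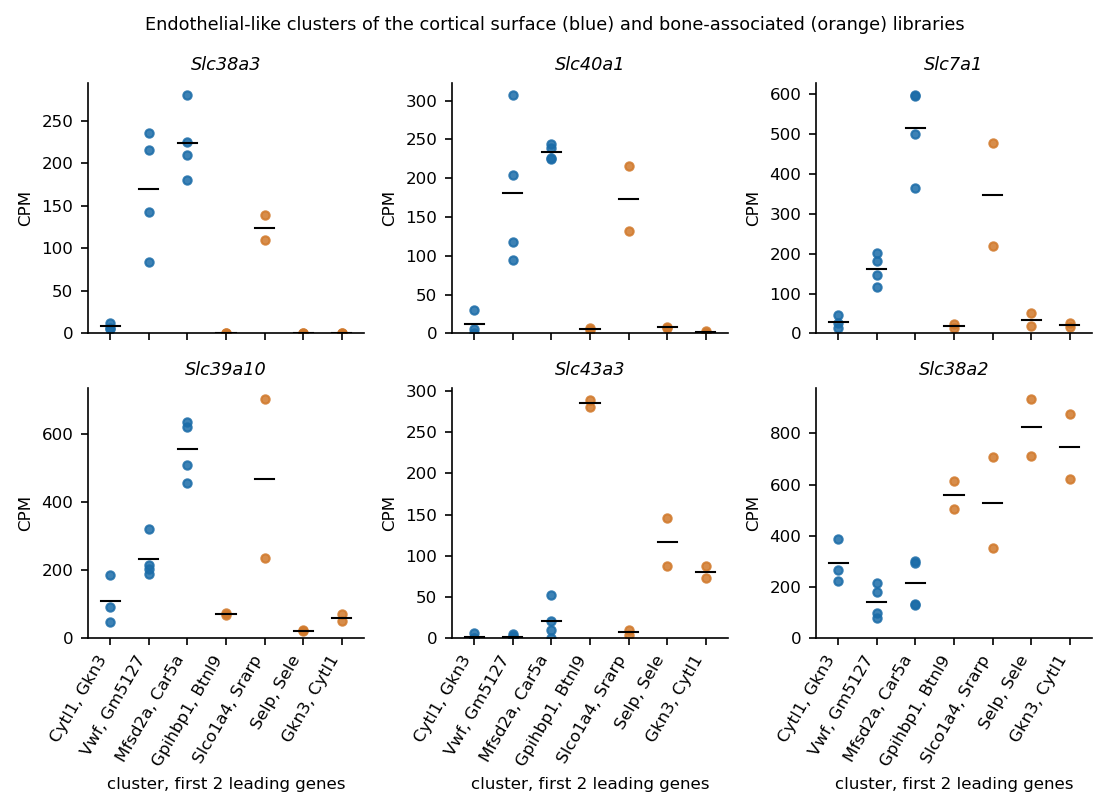
CPM of 6 solute carriers in the endothelial-like clusters of the cortical surface (blue) and bone-associated (orange) libraries, 1 point per library with at least 10 cells of the cluster and a bar at the mean. Slc38a3, Slc40a1, Slc7a1 and Slc39a10 are high in the bone-associated cluster led by Slco1a4 and low in the other 3 bone-associated clusters, Slc43a3 shows the reverse, and Slc38a2 lies at 353 CPM or more in every bone-associated point.

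Pericyte-like cells gave 3 higher and 9 lower members in the cortical surface of 86 tested (6.83% of 7135 genes called, 2.02% higher and 4.81% lower). Slc38a11 was read at 454, 316, 436 and 344 against 74.4 and 51.8 CPM (log2 fold change 2.69 ± 0.33, adjusted p = 1.5e-06) and Slc19a1 at 220, 434, 301 and 269 against 57.9 and 44.7 CPM (2.66 ± 0.37, adjusted p = 6.9e-06), with no overlap. The third was Slc9a3r2 (1.40 ± 0.30). Slc38a2 was lower at 60.9, 142, 67.9 and 29.2 against 885 and 749 CPM (-3.36 ± 0.33, adjusted p = 2.5e-08), the largest drop among the members here, and the lower members included Slc12a7, which had only 3 UMIs in the cortical surface cells, the ATP-magnesium/phosphate carrier Slc25a25 (-2.74 ± 0.49), Slc45a4, the myo-inositol transporter Slc5a3 (-2.36 ± 0.45), Slc41a3, Slc1a5 and Slc39a1 (-1.31 ± 0.32). Of these 12 calls, 6 were lost with DESeq2 (among them Slc12a7, Slc1a5, Slc39a1, Slc41a3 and Slc45a4) and 7 members were called without bone-associated library 2. The metallothioneins Mt1 (-3.03 ± 0.30) and Mt2 (-3.77 ± 0.49) were lower in the same cells, 2 of 11 other transport genes tested. The 8 mesenchymal markers, all detected, summed to 674 to 1002 CPM in the cortical surface and 1775 to 2075 CPM in the bone-associated libraries and the 10 VSMC markers to 2475 to 2814 and 3463 to 6759 CPM. Endothelial markers, of the class where Slc9a3r2 was highest, summed to 703 to 1658 and 544 to 719 CPM, with 15 of 17 higher in the cortical surface. The border macrophage markers summed to 47.7 to 631 and 16.7 to 25.1 CPM and the microglia markers to 92.7 to 120 and 12.5 to 33.5 CPM. Of the 88 bone-associated cells, 11 came from a split mixed cluster. Its other parts, in which 9 of 10 VSMC markers led, were left unnamed. In all, 8 of 22 marker lists did not overlap, and the part of these cells and markers in the calls was not tested.

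VSMC-like cells, with 2 libraries on each side, gave 3 higher and 6 lower of 98 members (5.82% of 8389 genes called, 1.75% higher and 4.06% lower), and the 3 higher ones were those of pericyte-like cells. Slc19a1 was read at 117 and 110 against 7.13 and 6.46 CPM (4.04 ± 0.31, adjusted p = 1.5e-07), Slc38a11 at 279 and 277 against 104 and 75.1 CPM (1.63 ± 0.24, adjusted p = 0.00016) and Slc9a3r2 at 67 and 68.5 against 24.7 and 18.8 CPM (1.64 ± 0.27, adjusted p = 0.00051). The pericyte-like and VSMC-like cells came from the same libraries, so the comparisons share their samples. Magnesium and metal carriers were among the lower members, with Slc41a3 at -2.30 ± 0.37, Slc41a1 at -1.76 ± 0.31 and Slc11a1, an iron and manganese exporter of phagosomes, at -1.60 ± 0.27. The others were Slc29a1 (-2.27 ± 0.28), Slc16a3 (-2.04 ± 0.49) and Slc9a3r1 (-1.45 ± 0.26). None of the 9 overlapped between the preparations, but with 2 libraries on each side 48 of all 98 members tested did not overlap (share over all genes not given). Mt1, Mt2, Abcc9 and Abca1 were lower too, 4 of 12 other transport genes tested. Abcc9 is also among the 9 pericyte markers used to name the classes, so its level depends in part on that naming. The 9 pericyte markers, with Atp13a5 at 0, summed to 2178 and 2179 CPM in the cortical surface and 1070 and 1309 CPM in the bone-associated libraries, led by Rgs5, although only 2 of them were higher in the cortical surface. The 8 mesenchymal markers summed to 468 and 553 against 813 and 982 CPM. The VSMC-like class took in 21 bone-associated and 20 cortical surface cells of split mixed clusters, in which 4 of 9 pericyte markers also led. With 2 libraries on each side 17 of 22 marker lists did not overlap, and the part of these cells and markers in the calls was not tested.

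In border macrophage-like cells 2 members were higher and 8 lower in the cortical surface of 109 tested (6.24% of 7751 genes called, 1.47% higher and 4.77% lower). Slc15a3, a lysosomal carrier of peptides and histidine, was at 106, 99.4, 43.4 and 47.5 against 374 and 404 CPM (-2.34 ± 0.33, adjusted p = 0.0021) and was the only member called in every fit that left out a library. Without bone-associated library 2 the count fell to 3. The remaining lower members were Slc7a1 (-3.06 ± 0.46), Slc25a33 (-2.61 ± 0.46), Slc38a1 (-2.16 ± 0.41), Slc35e4 (-1.99 ± 0.33), the iron importer Slc11a2 (-1.57 ± 0.31), Slc41a1 (-1.57 ± 0.41) and Slc12a7 (-1.38 ± 0.24). The astrocytic glutamate transporter Slc1a2 was read at 30.1, 45.6, 49.4 and 17.2 CPM in the cortical surface libraries and had 2 UMIs in the bone-associated ones, a ratio of 29.3 (8.02 to 243). Slc7a11 was read at 29.4, 75.9, 56.9 and 18.5 against 4.4 and 6.92 CPM (2.83 ± 0.74, adjusted p = 0.039). Both genes were far higher in other cells of the cortical surface libraries, at 6743 CPM in astrocyte-like and 3181 CPM in leptomeningeal cells. The 9 astrocyte markers, with Agt at 0, summed to 22.8 to 46.5 CPM in border macrophage-like cells of the cortical surface and 6.17 to 13.1 CPM in those of the bone-associated libraries, and the 8 mesenchymal markers to 73.9 to 420 and 109 to 216 CPM. The 8 markers of monocytes or other macrophages, led by Ccr2, summed to 5.05 to 58.9 against 143 to 407 CPM and were thus higher in the bone-associated libraries. Of 22 marker lists 13 did not overlap, and their part in the calls was not tested. None of 11 other transport genes tested was called.

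T or NK cell-like cells gave 8 lower and no higher members of 59 tested (7.26% of 5787 genes called, 1.69% higher and 5.56% lower), and the members' median log2 fold change was -0.47 against 0.05 over all genes. This median was -0.06 without cortical surface libraries 3 and 4, -0.24 without library 4 alone and -0.22 with a replicate block. Slc35d1 was at 6.12, 5.63, 2.68 and 3.95 against 38.9 and 25.8 CPM (-2.96 ± 0.36, adjusted p = 0.00055). Slc38a1, a glutamine and alanine importer, was at 113, 186, 93 and 96.4 against 296 and 313 CPM (-1.36 ± 0.26, adjusted p = 0.0054), and the others were Slc5a3, Slc41a1, Slc16a6, Slc7a6os, Slc26a2 and Slc7a1. Emb was the only one of 7 other transport genes to be called (-1.80 ± 0.30). The bone-associated libraries held 188 cells of a cluster with Gata3 and Csf2 among its leading genes and the cortical surface 52. With these cells left out 8 members were called, 7 of them the same, Slc38a1 being lost. The remaining cells still differed in their clusters. A cluster led by Cd163l1 held 163 of 793 bone-associated and 44 of 593 cortical surface cells. One of 126 bone-associated cells was led by Ctla4, which led no cortical surface cluster. Their part in the calls was not tested. Without cortical surface libraries 3 and 4, 3 members were called, 2 of them the same (Slc35d1 and Slc16a6). These alternatives were chosen after seeing the data. With a replicate block 3 members were called, 2 of them the same (Slc35d1 and Slc16a6), and Slc9a9 was gained. Of 22 marker lists of other cell types, 9 did not overlap between the preparations, among them the dendritic markers at 26.9 to 60.9 against 121 CPM in both bone-associated libraries and the microglia markers at 44.8 to 77.4 against 23.04 to 36.6 CPM, and their part in the calls was not tested.

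Microglia-like and border macrophage-like cells, both brain macrophages, could be compared within the 4 cortical surface libraries with the library as a block. Of 102 members 10 were higher and 7 lower in microglia-like cells, against 16.4% of all 7539 genes (7.79% higher and 8.66% lower). Slc2a5 was read at 270, 436, 326 and 370 CPM in microglia-like and 3.91, 2.41, 11.5 and 2.91 CPM in border macrophage-like cells (log2 fold change 6.41 ± 0.23, adjusted p = 6.9e-18). Slc16a3 was at 28.4, 32.3, 33.6 and 40.9 CPM in microglia-like cells and had no UMI in border macrophage-like cells, at least 84.8-fold higher against a floor of 3 counts over the group. Choline-like carrier Slc44a2 was at 114, 86.3, 99.7 and 104 against 3.47, 5.22, 6.57 and 2.91 CPM (4.43 ± 0.25, adjusted p = 5.6e-14), and Slc1a3 at 199, 137, 163 and 150 against 9.98, 36.5, 27.9 and 1.46 CPM (2.96 ± 0.28, adjusted p = 2.5e-09). Slc12a2 (2.03 ± 0.15), Slc12a9 (1.99 ± 0.18), Slc15a3 (1.71 ± 0.15), Slc16a6 (1.59 ± 0.13), Slc15a4 (1.54 ± 0.18) and Slc38a1 (1.32 ± 0.22) followed.

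Border macrophage-like cells were higher in Slc15a2, with 129, 119, 128 and 128 CPM against 10.7, 5.23, 2.04 and 6.42 CPM (-4.51 ± 0.23, adjusted p = 1.5e-14), and in Slc9a9, with 328, 282, 332 and 300 against 67.5, 77.6, 117 and 111 CPM (-1.69 ± 0.13, adjusted p = 3.1e-11). The peptide carriers thus went in opposite directions, Slc15a2 lower and Slc15a3 and Slc15a4 higher in microglia-like cells. Slc7a11 (-3.18 ± 0.32), Slc1a2 (-2.75 ± 0.32), Slc38a6 (-1.83 ± 0.25), Slc12a7 (-1.53 ± 0.31) and Slc16a10, a carrier of aromatic amino acids and thyroid hormone (-1.44 ± 0.22), were the other lower members. None of the 17 overlapped between the classes, and 48 of all 102 members tested did not. The 17 were called for their difference and the share over all genes is not given, so this is not read as a result about the carriers. No Slc25 family member (of 18), metal carrier (of 18) or nucleotide sugar carrier (of 13) passed. The metal-handling genes of the other list were lower in microglia-like cells, with Cp at -7.80 ± 0.29, Mt2 at -4.93 ± 0.19, Mt1 at -3.67 ± 0.11 and the ferritin genes Ftl1 and Fth1 at -1.67 ± 0.09 and -1.63 ± 0.08. The astrocyte markers summed to 1.71 to 14.6 CPM in microglia-like and 22.8 to 46.5 CPM in border macrophage-like cells, and stress and chemokine genes led 1 cluster of each class (Ccl7, Ccl2 and Hmox1 in border macrophage-like and Il1a and Ccl4 in microglia-like cells), and their part in these values was not tested.

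**Figure D4:**
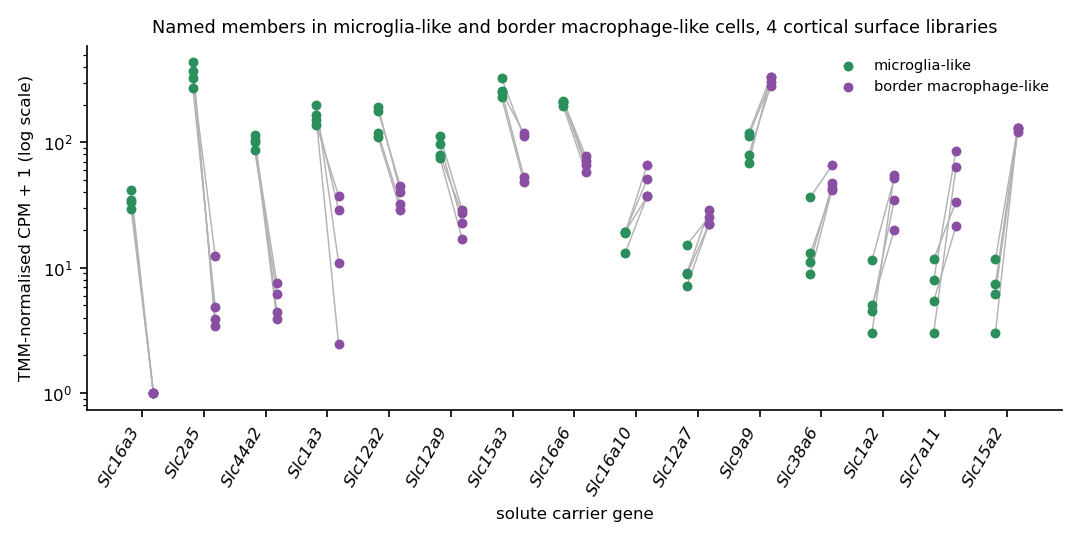
Levels of the called solute carriers in microglia-like and border macrophage-like cells of the 4 cortical surface libraries, 1 point per library and class, as log10(CPM + 1). Slc2a5 and Slc44a2 lie high in microglia-like and Slc15a2 and Slc9a9 in border macrophage-like cells, without overlap.

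Taken over the 6 comparisons of the preparations, which share the same 6 libraries, 49 of the 136 members tested in at least 1 were called in at least 1, and 48 of the calls were lower and 27 higher in the cortical surface (13.4% of the 560 tests of members, against 8.11% of those of all genes). Members needed at least 1000 UMIs over the 6 libraries, which the other genes tested did not. The shares called, here and in each comparison, are therefore not on equal terms. The share of calls that were lower was 64% for the members and 67.7% for all genes. Slc41a1 was called in 4, higher in mesenchymal-like and lower in VSMC-like, border macrophage-like and T or NK cell-like cells. Slc19a1, Slc38a2, Slc5a3 and Slc7a1 were called in 3, and 4 members had calls in both directions (among them Slc41a1, Slc7a1 and Slc9a3r1).

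Slc38a2 leaned the same way in every class with cells in both preparations. Its mean was higher in the bone-associated libraries in 12 of 12 classes, by 1.68-fold in VSMC-like to 10.1-fold in pericyte-like cells. In 10 of the classes the preparations did not overlap, the exceptions being T or NK cell-like cells (439 and 638 against 161 to 458 CPM) and border macrophage-like cells (220 and 508 against 91.3 to 422 CPM). Among the 10, choroid plexus-like cells and cells led by Ccl19 and Colec11 had 1 bone-associated library. VSMC-like and neutrophil-like cells had 2 libraries on each side. By the same count, Slc6a6 was higher in the bone-associated libraries in 10 of 12 classes, 7 without overlap. For Slc25a37 it was 8 of 12 classes, 3 without overlap. Lack of overlap, in either direction, was common among the members. It was seen for 45 of 119 tested in mesenchymal-like, 38 of 89 in endothelial-like, 24 of 86 in pericyte-like and 48 of 98 in VSMC-like cells. The share over all genes is not given for these counts or for those without overlap above. They are therefore not read as a result about the carriers. The classes share their libraries and dissociation and are not separate replicates of this difference. The clusters with Mfsd2a and the leptomeningeal and dural cells, compared above with the same sign, belong to the endothelial-like and mesenchymal-like classes already counted here.

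**Figure D5:**
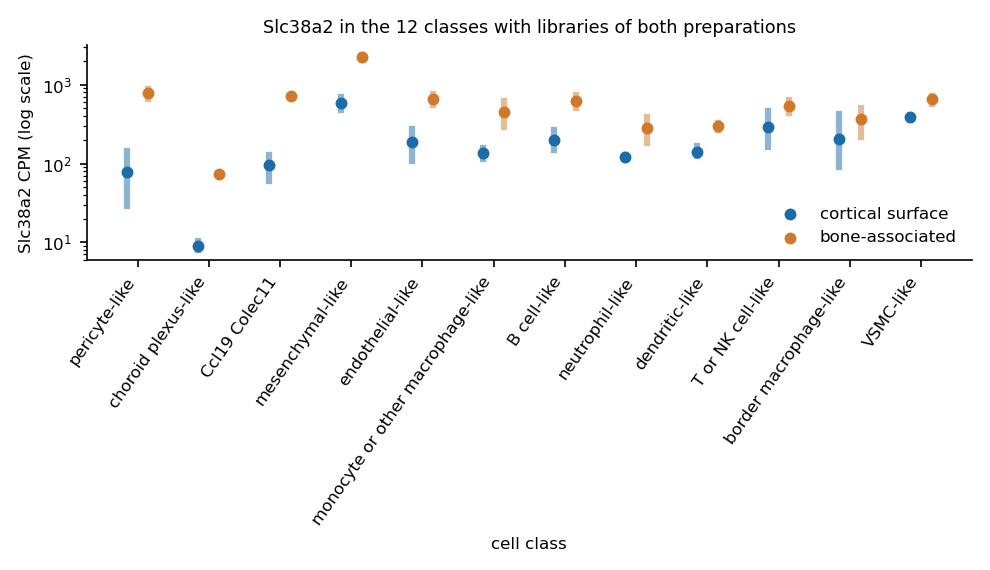
CPM of Slc38a2 per library in each class found in both preparations, cortical surface in blue and bone-associated in orange. Bone-associated libraries lie above cortical surface libraries in all classes except T or NK cell-like and border macrophage-like cells, where they overlap. Choroid plexus-like cells and cells led by Ccl19 and Colec11 have 1 bone-associated library each.

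Whether the preparations differed in another way in mesenchymal-like than in endothelial-like cells was tested directly as an interaction over both classes. Of 125 members, 9 had a more positive and 9 a more negative difference (cortical surface minus bone-associated) in mesenchymal-like cells, against 8.98% of 10119 genes called (3.76% higher and 5.23% lower). Among the 18 called members, Slc6a6 gave the largest value (-6.62 ± 0.56, adjusted p = 3.4e-08): it was at 14.9 CPM in leptomeningeal and 624 CPM in dural cells but at 1763 CPM in cortical surface and 780 CPM in bone-associated endothelial-like cells. Slc40a1 (-2.91 ± 0.67) and Slc7a8 (-4.85 ± 1.39) had the same sign, but neither was called with DESeq2. Among the leptomeningeal libraries, Slc7a8 had UMIs in cortical surface library 2 alone (4 UMIs). In the other direction, Slc16a11 (5.74 ± 0.90), Slc38a3 (5.48 ± 0.57, adjusted p = 5.9e-07), Slc7a11 (5.13 ± 0.80) and Slc41a1 (3.06 ± 0.34, adjusted p = 1e-06) rose more toward the cortical surface in mesenchymal-like cells. Slc38a2, lower in the cortical surface in both classes, was not among the 18. Of the 18, 9 were called in every fit that left out a library, and Slc40a1, Slc7a8, Slc16a11 and Slc7a11 were not. The endothelial-like side takes in clusters that differed between the preparations, and the interaction was not run on the clusters with Mfsd2a alone. In those the endothelial-like difference was 0.34 for Slc40a1, 0.79 for Slc38a3 and 0.91 for Slc29a1.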

How the data were processed

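The authors deposited raw counts of UMIs per gene and barcode for each of 6 10x libraries. The submitters' notes name Cell Ranger 3 and mm10, while the deposited matrix headers name Cell Ranger 6.1.2. The labels describe a papain digest and the study's methods collagenase and dispase. Barcodes passed with 500 or more genes and mitochondrial UMIs of up to 10%, and the cells with the highest scores against simulated doublets (4 to 50 per library) were left out. Free RNA was not corrected for. Clustering was done within each preparation (2000 variable genes without solute carriers, 30 principal components, 15 neighbours, Leiden resolution 1.5), so the clusters are rebuilt and not those of the study. A cluster was named when at least 3 markers of a class led it. Exempting related myeloid classes from the rule on mixed clusters, leaving clusters led by hemoglobin genes unnamed, setting cells led by Ccl19 and Colec11 apart from pericytes and splitting mixed clusters were chosen after seeing the data.

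UMIs were summed per library and class of at least 10 cells. Genes with a UMI in more than 10% of cells in one of the groups entered edgeR 4.0.16 (quasi-likelihood, TMM, R 4.3.3). Fits of microglia-like against border macrophage-like cells and of the interaction had a term for each library. The remaining comparisons had no replicate block. Reported p-values rest on the spread between pooled libraries, which edgeR moderates with the spread of all genes tested. Residual degrees of freedom were 2 in VSMC-like cells and 4 in the other comparisons of the preparations. Small p-values therefore lean on that shared spread and do not measure a gene's own spread alone. The test recovered 107 to 193 of 200 genes changed by a log2 of 2 in counts simulated for the 8 comparisons, with 0 to 6 unchanged genes called. The simulated libraries shared a single pooled profile and the same dispersion for every gene, and only genes with at least 50 UMIs were changed. Apart from these changes they differed in depth alone, so the counts do not give the error rate in the real libraries. Named members were up to 6 apart per class, up to 8 called per direction with at least 50 UMIs, 3 on each side of the UMI limit and the 2 most abundant; others are named where called members are listed. Results of some genes are not reported here. The members and lists were chosen with earlier results of these data known. Symbols, strand and gene overlaps came from the mm10 annotation, and promoters from RefSeq, where 107 of 137 members matched.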

Additional observations from a re-analysis of the deposited data

Results flagged for a closer look

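In 10 of 107 groups of 4 to 10 libraries tested (chance gives about 1 in 20), 1 library was flagged for a gap to the others that was large for the range of its group. In leptomeningeal cells these were Slc43a3 in cortical surface library 4 (15.85 CPM, the others at most 1.51), Slc16a7 in library 3 (16.54 CPM, at most 2.22), Slc7a8 in library 2 (2.962 CPM, the others 0) and Slc25a17 in library 3 (89.27 CPM, the others 79.9 to 80.7). Slc20a1 in endothelial-like cells of library 1 was at 23.55 CPM (2.96 to 6.27) and Slc16a6 in T or NK cell-like cells of library 1 at 21.42 CPM (27.7 to 28.6). In border macrophage-like cells Slc2a5 was at 11.5 CPM in library 3 (2.41 to 3.91) and Slc15a2 at 118.9 CPM in library 2 (128.1 to 128.9). In microglia-like cells Slc16a10 was at 12.04 CPM in library 4 (17.8 to 18.3) and Slc38a6 at 35.55 CPM in library 1 (7.85 to 12.04). Some of these values rest on few UMIs, such as 17 for Slc25a17 in library 3 and 7 for Slc16a6 in library 1. The groups also share libraries. The rate of 1 in 20 allows for neither, so no excess over chance is shown.

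The difference between the preparations was itself different in mesenchymal-like and endothelial-like cells, by the interaction test, for a number of named members. It was more positive in mesenchymal-like cells for Slc16a11 (5.74), Slc38a3 (5.48), Slc7a11 (5.13), Slc41a1 (3.06), Slc1a3 (2.60), Slc9a3r1 (2.39), Slc3a2 (2.31) and Slc29a1 (2.18), as log2 differences. It was more negative for Slc6a6 (-6.62), Slc7a8 (-4.85), Slc40a1 (-2.91), Slc23a2 (-2.11), Slc16a9 (-1.95), Slc30a1 (-1.62) and Slc31a1 (-1.50). Slc30a1 was at an adjusted p of 0.049 in edgeR's quasi-likelihood test and was called under 2 of 16 alternatives. Its call and those of Slc7a8, Slc40a1, Slc31a1 and Slc9a3r1 were lost with DESeq2.

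Outside the kept cells, 79.4% of the UMIs of Slc25a37 and 77.2% of those of Slc25a39 lay in barcodes left out, mostly of cortical surface libraries 3 and 4, where hemoglobin was abundant.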

How the results depend on the processing

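Counts of called members moved by over 1.5 times in some settings. Thinning cells to 1500 UMIs left few members to test and gave 9 called in endothelial-like (25 tested), 4 in pericyte-like, 4 in VSMC-like, 3 in border macrophage-like and 2 in T or NK cell-like cells and 10 for the interaction. DESeq2 gave 6 in pericyte-like cells, upper-quartile normalization 5 and no filter on genes 14 in T or NK cell-like cells, and no filter 20 in border macrophage-like cells. Leaving out each library gave 21 to 25 called in mesenchymal-like, 10 to 16 in endothelial-like, 7 to 12 in pericyte-like, 8 to 11 in VSMC-like, 3 to 12 in border macrophage-like and 4 to 13 in T or NK cell-like cells, 18 to 19 between microglia-like and border macrophage-like cells and 11 to 18 for the interaction. Those called in every such fit were 17 of 21, 8 of 15, 5 of 12, 7 of 9, 1 of 10, 3 of 8, 16 of 17 and 9 of 18. The lowest counts came without bone-associated library 2 in pericyte-like (7) and border macrophage-like cells (3) and for the interaction (11), and without cortical surface library 3 in T or NK cell-like cells (4, against 13 without library 2). In alternatives chosen after seeing the data, the clusters with Mfsd2a alone gave 1 called member in endothelial-like cells (2.07% of all genes called), with reversed signs for Slc46a3 (-0.24), Slc1a3 (-0.49) and Slc29a1 (0.91), and leaving out cortical surface libraries 3 and 4 gave 3 in T or NK cell-like cells. Slc1a3 reversed in the thinned interaction (-0.58). The cause was not tested except that thinning left fewer members above the filter. Replicate numbers are shared by 2 pairs only, and no label ties them to a common batch (correlations of same-numbered deviations 0.03 to 0.36). A replicate block gave 25, 14, 10, 9, 12 and 3 called members in mesenchymal-like, endothelial-like, pericyte-like, VSMC-like, border macrophage-like and T or NK cell-like cells, the last down from 8. The same highest class was found for 98 of 137 members after thinning, 106 with up to 20% mitochondrial UMIs and 116 to 132 without 1 library, and for 57 in every setting. Pericyte-like cells could not be fitted at Leiden resolution 1.0.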
